A study of Solanum lycopersicum with 28 samples.

Results

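Lysine 4 of histone H3 can carry 1, 2 or 3 methyl groups, and the peak lists of these degrees (H3K4me1, H3K4me2 and H3K4me3) were set against each other by coordinate. All deposited peaks on the 12 chromosomes were used, which gave 30668 H3K4me1, 72196 H3K4me2 and 43977 H3K4me3 peaks. Together these were 146841 of the 3381748 peaks that the 28 lists of the series hold on the chromosomes. The lists came from ChIP-seq, in which an antibody recovers the DNA that lies on a modified histone. The plants were wild-type tomato (Solanum lycopersicum) of the cultivar M82, untreated, 4 weeks old and kept at 24 °C under long days (16 h of light), and the fourth leaf was taken. The other lists were those of 24 further targets, among them RNA polymerase II (Pol2), and the Input, chromatin sequenced without an antibody.

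In plants, as in animals and fungi, H3K4 is methylated by SET domain enzymes of the Trithorax family, several of which work in COMPASS complexes, and it is demethylated by LSD1-type and JmjC-type enzymes. H3K4me3 is known from the starts of transcribed genes and H3K4me1 from the bodies of genes, whereas H3K4me2 in plants has also been linked to low transcription. H3K36me3, used below as a partner, is laid down over the bodies of transcribed genes, H3K27me3 is the mark of Polycomb repression, and H3K9me2 marks silenced repeats.

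Each degree had 1 library, so every comparison below is a description of 3 lists with no test, and no value carries information on the variation between plants. Shares of peaks are given with a Wilson 95% interval, which covers counting error only, and other values with their range over the 12 chromosomes, which are not replicates. The lists also differed in kind. H3K4me1 and H3K4me3 were deposited as narrow peaks and H3K4me2 as broad peaks, in which neighbouring enriched stretches are joined and fold and q-values are averaged. The H3K4me1 list lacked the replicate tag that the H3K4me2 and H3K4me3 lists carry in their names, and the name of its file includes the word Input, so that the control behind its folds may differ from that of the other lists, which the sources used here do not give. The lists hold no read totals. The local background, computed back out of each peak's fold and p-value, had a 1st percentile of 10.99 reads for H3K4me1, about 5.43 for H3K4me2 and 8.42 for H3K4me3. The value of H3K4me2 is rough, because the averages of broad peaks need not come from a single read count. The read count solved in the same way was a whole number for 100% of the H3K4me1 and H3K4me3 peaks, but for 10.8% of the H3K4me2 peaks. A difference between degrees therefore cannot be told apart from a difference in peak format, depth or antibody.

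H3K4me1 formed the longest peaks and H3K4me3 the highest. The median fold enrichment over the local background was 2.60 for H3K4me1, 1.64 for H3K4me2 and 3.99 for H3K4me3, the last being the highest of the 28 lists. The share of peaks with a q-value under 0.05 was 93.2% for H3K4me1, 39.8% for H3K4me2 and 92.6% for H3K4me3. By these values H3K4me2 was a long list of mostly low peaks between lists of stronger ones. Its fold and q-values are averages over broad peaks, however, so its lower values cannot be told apart from the peak format.

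Width set H3K4me1 apart in its upper range rather than in its centre. The median width was 1214 bp for H3K4me1, 791 bp for H3K4me2 and 873 bp for H3K4me3, and the lower quartiles (365, 399 and 317 bp) were close together. The upper quartiles were 3792.5 bp for H3K4me1, 1716 bp for H3K4me2 and 1284 bp for H3K4me3. H3K4me1 had 5397 peaks of 5 kb or more, which held 59.2% of its bases. H3K4me2 had 436 such peaks with 2.88% of its bases, and H3K4me3 had 0. Within a list, medians by chromosome ran from 961 to 1729 bp for H3K4me1, from 677 to 1027.5 bp for H3K4me2 and from 819 to 918 bp for H3K4me3. When peaks were joined over gaps of up to 300 bp in all 3 lists, the ratio of the H3K4me1 to the H3K4me3 median was 2.21 in place of 1.39. The order of the medians was not stable. The ratio of the H3K4me2 to the H3K4me3 median was 0.906 over all peaks, but 1.77 with q-values under 0.05. It was 1.39 both with folds above 1.5 and without the peaks that touched an Input peak. Under these limits, in the same order, the ratio of the H3K4me1 to the H3K4me3 median was 1.58, 1.49 and 1.12. H3K4me2 thus had the widest median with q-values under 0.05 and without the peaks that touched an Input peak.

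**Figure D1:**
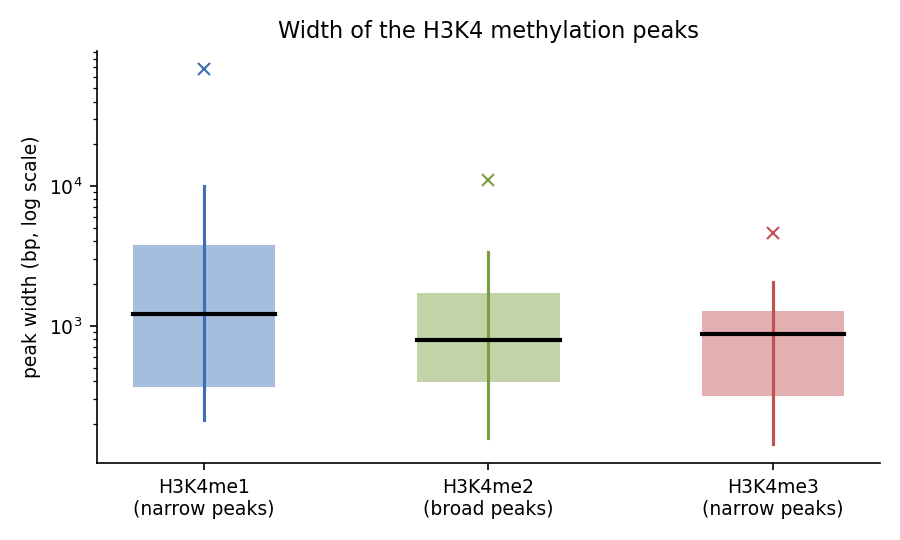
Width of the peaks of each list in bp on a log scale; boxes span the quartiles, black lines are medians, vertical lines run between the 5th and the 95th percentile and crosses are the longest peaks. The upper quartile of H3K4me1 (3792.5 bp) lies above those of H3K4me2 (1716 bp) and H3K4me3 (1284 bp), while the lower quartiles are close together.

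The extreme peaks show the same contrast at single places, given in coordinates of version 1 of the M82 genome. No annotation of that version was used here, so that genes at these places are not named. The longest H3K4me1 peak spanned 67724 bp on chromosome 7 (22068270 to 22135993), had a fold of 5.33, and lay within H3K36me3 over 98.5% and within H3K4me2 over 53.0% of its length, with none of it in H3K4me3. The H3K4me1 peak of highest fold (9.70) lay on chromosome 1 (86145455 to 86155477) and was covered by H3K36me3 throughout. These places were not free of a repressive mark: H3K9me2 covered 28.03% of the longest and 20.9% of the highest peak, against 4.12% of all H3K4me1 bases.

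The H3K4me3 peak of highest fold (24.3) was 564 bp long, on chromosome 4 (7640296 to 7640859), and lay within H3K9ac over all of its length. The longest H3K4me3 peak measured 4633 bp, on chromosome 8 (53912064 to 53916696), with a fold of 2.21 and H3K4me1 over 74.3% of it. The H3K4me2 peak of highest fold (10.3), on chromosome 11 (57778366 to 57779007), lay wholly within H3K4me3 and H3K9ac and over 99.8% within H3K27me3. The Input covered 49.8% of this H3K4me2 peak. The longest H3K4me2 peak, 10954 bp on chromosome 9 (1617536 to 1628489), had a fold of 1.83, and 95.3% of it was H3K4me1. The strongest H3K4me2 peak therefore lay on H3K4me3, and the longest on H3K4me1.

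Over the chromosomes, the degrees shared bases in the order of their methyl groups. H3K4me1 covered 86.5 Mb (10.8% of the chromosomes), H3K4me2 85.7 Mb (10.7%) and H3K4me3 39.7 Mb (4.95%), and together they covered 133 Mb. H3K4me2 was the common partner. Of the H3K4me3 bases, 83.0% lay in H3K4me2 (82.1% to 84.3% over chromosomes, against 10.7% of all chromosome bases) and 30.4% in H3K4me1 (28.6% to 31.9%, against 10.8%). Of the H3K4me1 bases, 52.5% lay in H3K4me2 (50.3% to 55.4%) and 13.97% in H3K4me3 (11.2% to 15.5%, against 4.95%). H3K4me2 lay in H3K4me1 over 53.1% and in H3K4me3 over 38.5% of its bases. The values differed between zones of the chromosomes. In the outer 10% at each end, H3K4me3 lay in H3K4me1 over 32.9%, against 28.4% of all bases there, and in the rest over 27.8%, against 6.39%. With H3K4me2 the values were 80.2%, against 23.5%, in the outer zones and 86.1%, against 7.48%, in the rest.

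In the lists as deposited, mono- and trimethylation hardly met without dimethylation. Of the H3K4me3 bases, 28.8% lay in all 3 lists and 1.60% in H3K4me1 but not in H3K4me2. The bases of H3K4me1 and H3K4me3 without H3K4me2 were not recomputed under the alternatives below. Of the bases in any of the lists, 0.479% were in H3K4me1 and H3K4me3 but not in H3K4me2, whereas 25.6% were in H3K4me1 and H3K4me2 only, 16.2% in H3K4me2 and H3K4me3 only, and 8.62% in all 3. H3K4me1 alone held 30.4%, H3K4me2 alone 14.1% and H3K4me3 alone 4.59%. The bases shared by 2 lists, as a share of those in either, came to 35.9% for H3K4me1 with H3K4me2, 10.6% for H3K4me1 with H3K4me3 and 35.7% for H3K4me2 with H3K4me3.

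**Figure D2:**
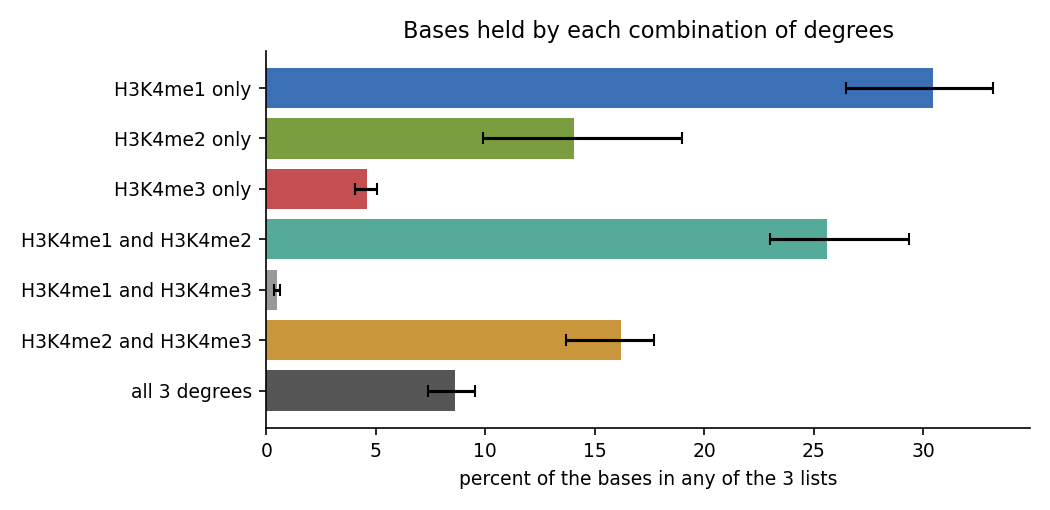
Share of the bases in any of the 3 lists that each combination of degrees holds, in percent; bars are all chromosomes together and black lines the lowest and the highest of the 12 chromosomes. H3K4me1 alone is the largest class (30.4%), and H3K4me1 with H3K4me3 but without H3K4me2 is the smallest (0.479%).

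These shares depended on how strong a peak had to be and on whether peaks that touched the Input were kept. With peaks of a q-value under 0.05 only, 76.9% of the H3K4me3 bases lay in H3K4me2, and H3K4me1 lay in H3K4me2 over 30.1% of its bases. When each list was restricted to its peaks of highest fold so that all covered the same number of bases, H3K4me3 lay in H3K4me2 over 61.5% and in H3K4me1 over 7.23%, and H3K4me1 lay in H3K4me2 over 12.9%. Most peaks also touched a peak of the Input. No Input peak was touched by 11272 of the 30668 H3K4me1, 29679 of the 72196 H3K4me2 and 13755 of the 43977 H3K4me3 peaks, and among these the H3K4me3 bases lay in H3K4me2 over 36.1% and in H3K4me1 over 12.6%, and the H3K4me1 bases in H3K4me2 over 17.4%. Touching the Input went with width, however. Of the H3K4me1 peaks on both other degrees (median 2136 bp), 73.9% touched it, against 20.2% of those on neither (308 bp). The Input list held 344406 peaks with a median width of 118 bp, and 1.80% of them had a q-value under 0.05. The part of the Input in the overlap was not tested and cannot be told apart from that of peak width.

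Peak by peak, H3K4me3 was nearly always accompanied by H3K4me2. Of the H3K4me3 peaks, 91.8% touched an H3K4me2 peak (91.5% to 92.0%) and 58.5% an H3K4me1 peak (58.0% to 58.9%). Without the peaks that touched the Input, the first share was 33.9% and the second 19.0%. Of the H3K4me1 peaks, 87.0% touched H3K4me2 (86.6% to 87.3%) and 73.8% H3K4me3 (73.3% to 74.3%). H3K4me2 had the lowest shares, 49.0% with H3K4me1 (48.7% to 49.4%) and 44.3% with H3K4me3 (43.9% to 44.6%), and 35.3% of its peaks touched neither. Without the peaks that touched the Input, 18.04% of the H3K4me1 peaks touched H3K4me2 and 23.1% H3K4me3, so that the order of these partners turned. The shares of H3K4me2 peaks were then 5.84% with H3K4me1 and 13.8% with H3K4me3.

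Whether an H3K4me2 peak touched H3K4me3 went with its height and its width. With the H3K4me2 peaks split by fold into 4 groups of 18049, 4.72% of the lowest group (up to 1.47) and 96.5% of the highest group (above 2.38) touched H3K4me3. With H3K4me1 the range was narrower, 22.2% in the lowest, 63.3% in the third and 59.3% in the highest group. By width, 11.1% of the shortest and 81.5% of the longest group touched H3K4me3, and 22.1% and 86.9% touched H3K4me1. With a q-value under 0.05, 92.4% of the H3K4me2 peaks touched H3K4me3. The H3K4me2 peaks thus fell into classes of unlike strength. Those that touched H3K4me3 but not H3K4me1 (11311) had a median fold of 2.70, those that touched both (20655) 2.39, those with H3K4me1 only (14733) 1.55, and those with neither (25497) 1.46. A q-value under 0.05 was reached by 78.1% of those on H3K4me3 only and 87.0% of those on both, but by 5.27% of those on H3K4me1 only and 4.51% of those on neither.

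The weak H3K4me2 peaks lay in unlike surroundings too. Of those on H3K4me1 only, 86.4% touched H3K36me3 and 10.5% H3K9me2. Of those that touched neither degree, 37.3% touched H3K36me3 and 64.5% H3K9me2. As shares of bases, H3K36me3 covered 23.7% of the chromosomes and H3K9me2 42.8% (51.0% outside the outer 10% at each end), and a touch by 1 bp is met more easily than a base. These lone H3K4me2 peaks were short (median 403 bp), and 9.45% of them had their midpoint in the outer 10% at either end of a chromosome. The 1149 of them with a q-value under 0.05 differed from the rest, since 77.7% touched H3K27me3, 89.7% H3K27ac and 2.44% H3K9me2. Of the 24348 others, 13.2% touched H3K27me3, 14.1% H3K27ac and 67.5% H3K9me2, where H3K27me3 covered 10.2% of the chromosomes. An Input peak was touched by 65.4% of the 1149 and by 30.5% of the others.

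Peaks far from any other degree were mostly low H3K4me2 peaks. No other degree lay within 10 kb of 18 H3K4me1 peaks (0.0587%), 19312 H3K4me2 peaks (26.7%) and 70 H3K4me3 peaks (0.159%). A q-value under 0.05 was reached by 88.9% of these H3K4me1, 1.63% of these H3K4me2 and 91.4% of these H3K4me3 peaks. The highest of these H3K4me1 peaks (fold 5.42, 371 bp) lay on chromosome 2 (47208504 to 47208874). The highest such H3K4me3 peak (fold 17.2, 563 bp) lay on chromosome 7 (4909598 to 4910160), wholly within H3K9ac and H3K27me3. The highest such H3K4me2 peak (fold 4.86, 207 bp) lay on chromosome 8 (66730497 to 66730703), within H3K27me3 and H3K9me2 along its whole length and close to the chromosome end. H3K36me3 covered 93.2% and the Input 45.9% of the same peak.

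Inside peaks of at least 1 kb, the other degrees were not spread evenly. In H3K4me1 peaks (16237), H3K4me3 covered 44.6% of the positions in the outermost 10% and 9.31% in the innermost 10%, when both sides were folded together. H3K4me2 changed little over the same peaks, with 59.8% in the outermost and 52.4% in the innermost 10%. In H3K4me3 peaks (18812) the positions of H3K4me2 were the reverse, 57.0% in the outermost and 94.6% in the innermost 10%, and H3K4me1 covered 35.1% and 19.8%. Trimethylation thus sat at the margins of monomethylated stretches, and dimethylation spanned the boundary.

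H3K4me1 lay on 1 side of an H3K4me3 peak more often than on both. Within 2 kb of its edges, 27.4% of the H3K4me3 peaks had H3K4me1 on both sides (26.98% to 27.8%), 42.7% on 1 side (42.2% to 43.2%) and 29.9% on neither. H3K4me2 was present on both sides in 48.2%, on 1 side in 44.6% and on neither in 7.26%. Among the 18780 peaks with H3K4me1 on 1 side, H3K4me2 lay on that side only in 62.0%, on the opposite side only in 3.16%, on both in 31.0% and on neither in 3.82%. Of the H3K4me3 peaks with any flanking H3K4me1, 60.9% had it on 1 side only. This share was 68.3% with flanks of 1 kb and 49.0% with flanks of 5 kb, where H3K4me1 on both sides was the more frequent.

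The arrangement is plainest when touching and overlapping peaks of any degree are taken as 1 domain. There were 63663 such domains, and 19028 of them (29.9%) held all 3 degrees and 73.4% of all bases, with a median length of 3903.5 bp. In 10680 of these 19028 domains (56.1%, Wilson interval 55.4% to 56.8%, and 53.3% to 60.5% over chromosomes) H3K4me3 stood alone at 1 end and H3K4me1 alone at the other. H3K4me3 stood alone at both ends in 5.71% and H3K4me1 at both ends in 4.50%. The shares of H3K4me3 (42.3%) and H3K4me1 (36.8%) among the ends multiply to 31.1% of domains with unlike ends. They multiply to 17.9% with H3K4me3 at both and to 13.5% with H3K4me1 at both. Domains chosen to hold all 3 degrees do not have ends independent of each other, so such products are not expected shares, here or below. The full ladder, H3K4me3 only, H3K4me2 and H3K4me3, all 3, H3K4me1 and H3K4me2, H3K4me1 only, made up 4331 domains (22.8%) without any other step.

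Domains of unlike ends, here named polarized, pointed left and right in equal numbers, with 5350 having H3K4me3 at the lower coordinate and 5330 at the higher one. They made up 60.9% of the domains of 3 degrees in the outer 10% of the chromosomes and 50.3% in the rest. With a q-value under 0.05 they were 61.0% of 16986 domains. With equal bases of the highest fold they were 91.6% of 3662 domains, where the end shares multiply to 48.2%. Without the peaks that touched the Input, 989 domains of 3 degrees were left and 30.9% of them were polarized, where the end shares multiply to 19.4%.

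The steps of polarized domains differed in length. The median domain was 4596.5 bp long (quartiles 3172 and 6822.5 bp). Counted from the H3K4me3 end, H3K4me2 began at a median of 181 bp (86 to 394 bp) and H3K4me1 at 734 bp (616 to 896 bp), H3K4me3 ended at 1260 bp (1053 to 1715 bp) and H3K4me2 at 3102.5 bp (1894.75 to 5352.25 bp). The stretch of H3K4me1 alone had a median of 1853 bp (637 to 3602.25 bp). The degree that stood alone at each end is what selected these domains, so H3K4me3 begins first and H3K4me1 ends last by choice. The steps between the ends and the lengths are a description of the data.

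**Figure D3:**
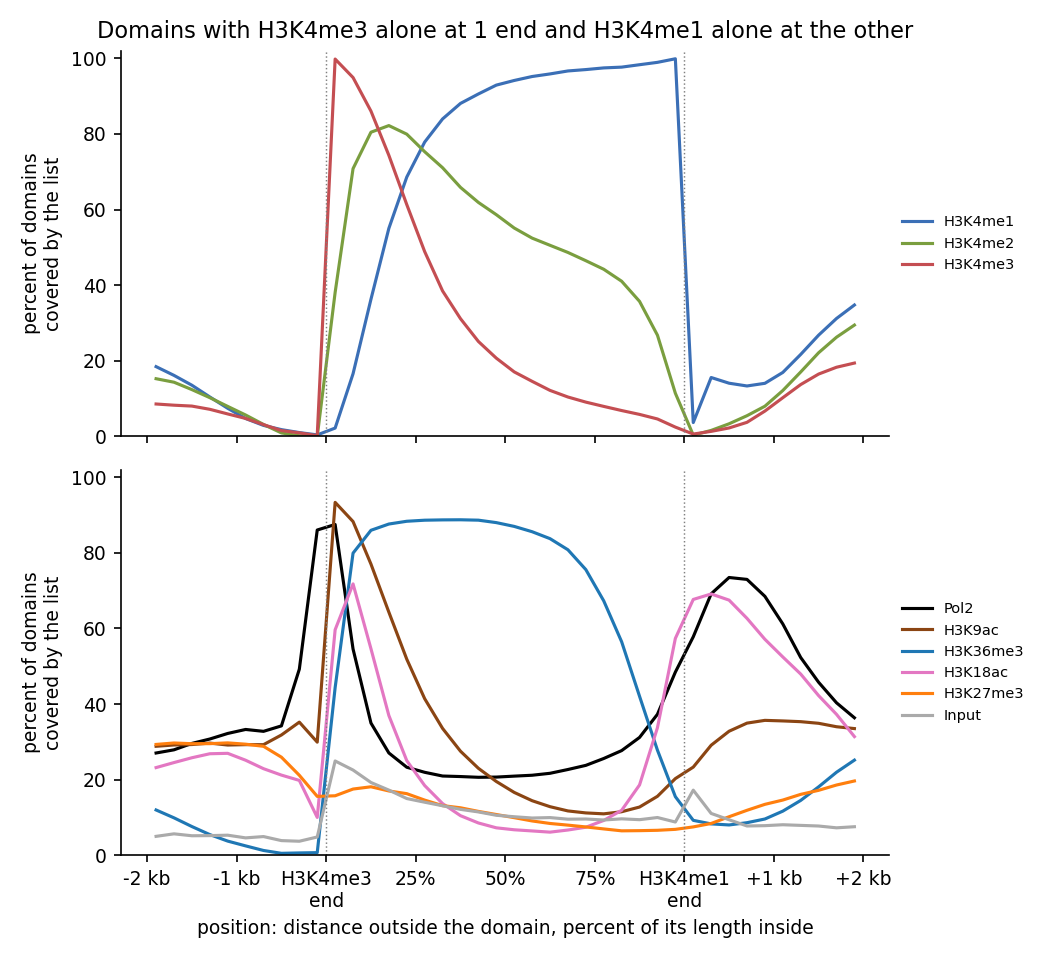
Share of the 10680 polarized domains, in percent, that each list covers at positions outside the domain (distance in kb) and inside it (percent of its length, with the H3K4me3 end on the left); the upper panel has the degrees that selected the domains and the lower panel other lists. Pol2 stands highest at the H3K4me3 end (86.0% in the 200 bp outside it) and again beyond the H3K4me1 end (73.5% at 400 to 600 bp), and H3K36me3 fills the middle.

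Other lists, which played no part in the choice, were also uneven along the polarized domains. Over all chromosome bases, H3K9ac covered 89.2% of H3K4me3 alone and 4.85% of H3K4me1 alone. A list that shares its bases with 1 degree is therefore uneven here by the choice of the ends. Domains without unlike ends were not set beside these. Each value is the share of polarized domains in which the middle base of a step lay in the list. Steps were 200 bp long outside the domain and 5% of its length inside. Values for longer stretches are means over their steps. Pol2 covered 86.0% of the polarized domains in the 200 bp outside the H3K4me3 end and 87.5% in the first 5% inside, against 9.39% of all chromosome bases. In the middle of the domains it covered 20.7% to 20.9%, and beyond the H3K4me1 end it covered 73.5% of positions at 400 to 600 bp. Pol2 therefore stood at both ends, sharply at the trimethylated and outside the monomethylated one. H3K9ac, an acetylation of open chromatin, covered 90.8% in the first 10% and 17.9% in the last. H3K36me3 covered 44.4% in the first 5%, 88.7% at 30 to 40% of the length and 15.5% in the last 5%, with 0.712% in the 200 bp outside the H3K4me3 end.

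Acetylations differed at the far end. All 13 acetylation lists covered more of the first 10% than of the last. The log2 ratio of the first over the last 10% was highest for H3K79ac (4.00) and lowest for H3K18ac (0.53), with H3K27ac at 1.16. H3K18ac covered 65.7% of the first 10% and 45.6% of the last, and 69.1% at 200 to 400 bp beyond the H3K4me1 end. H3K27ac covered 83.8% and 37.6%, and 54.1% in the 200 bp beyond that end. H3K36ac, by contrast, covered 88.2% and 8.80%, and 13.4% in those 200 bp. H3K18ac, H3K27ac, H3K36ac and H3K79ac are named here after their values were seen.

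The repressive marks differed. H3K27me3 covered 16.6% of the first 10% and 6.75% of the last, and 26.9% of the 2 kb outside the H3K4me3 end, against 10.2% of the chromosomes. H3K9me2 covered 0.290% of the first 10% and 0.922% of the last, against 42.8% of the chromosomes. H3K23me3 is a methylation too, but the study counts it among the marks of euchromatin. It had the highest ratio of the 25 lists that did not select the domains (log2 6.49, with 74.3% in the first and 0.829% in the last 10%). The Input covered 23.8% of the first 10% and 9.41% of the last (log2 1.34), and its part in these values was not tested.

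Neighbouring polarized domains were spaced by which ends faced each other. Of 3609 pairs with no other domain between them, 1036 had the H3K4me3 ends facing (28.7%, interval 27.3% to 30.2%), 1655 ran in the same direction (45.9%, 44.2% to 47.5%) and 918 had the H3K4me1 ends facing (25.4%, 24.0% to 26.9%). The same-direction class joins pairs that both point left and pairs that both point right, whereas each facing class holds a single arrangement. Its larger share is therefore not read as a preference. The median gap was 3376.5 bp (quartiles 1606 and 6425.25 bp) between H3K4me3 ends, 1775 bp (1144 to 3280 bp) in the same direction and 1378 bp (1073.25 to 1849.75 bp) between H3K4me1 ends. The gaps between H3K4me1 ends were thus the shortest and the least variable.

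What filled the gaps also differed with the facing, which cannot be told apart here from the length of the gaps. A limit of 5 kb kept 691 of 1036 gaps between H3K4me3 ends, 1435 of 1655 in the same direction and 886 of 918 between H3K4me1 ends. In gaps of up to 5 kb, Pol2 covered 38.6% of the bases between H3K4me3 ends (691 gaps), 67.1% in pairs of the same direction (1435) and 79.5% between H3K4me1 ends (886). H3K18ac covered 12.2%, 45.1% and 79.1% of the same gaps, against 8.99% of the chromosomes. H3K27me3 ran the other way, with 27.2%, 17.2% and 8.04%. H3K9me2 covered at most 0.117%. The Input covered 2.60%, 5.23% and 8.96%, against 5.96% of the chromosomes. It thus rose in the same order as Pol2 and H3K18ac, and its part in these values was not tested.

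A run on chromosome 3 illustrates the ladder at its strongest. By the product of folds it was the highest of 45112 runs of the degrees within 2 kb. The H3K4me3 peak (19083680 to 19084779, fold 12.3) overlapped the H3K4me2 peak (19083431 to 19084700, fold 4.45) over 92.8% of its length and the H3K4me1 peak (19079352 to 19084226, fold 6.68) over 49.7%. H3K36me3 covered the H3K4me1 peak throughout, and Pol2 covered 33.6% of the H3K4me3 peak and none of the H3K4me1 peak. The monomethylated stretch went on beyond this run. Counted from the middle of the H3K4me3 peak, a further H3K4me1 peak (fold 5.94) lay at -38239 to -5151 bp, beside the named one at -4878 to -3 bp. An H3K36me3 peak (fold 2.51) ran from -37322 to 453 bp.

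Over all bases, each combination of degrees had its own partners. H3K36me3 covered 72.1% of H3K4me1, 50.1% of H3K4me2 and 42.9% of H3K4me3, against 23.7% of the chromosomes. H3K9ac covered 11.9% of H3K4me1, 30.8% of H3K4me2 and 69.9% of H3K4me3 (against 9.37%), and Pol2 18.5%, 22.1% and 43.2% (against 9.39%). Over whole lists, H3K36me3 thus shared fewer and H3K9ac and Pol2 more of the bases with each added methyl group. H3K36me3, Pol2 and H3K9ac lack the replicate tag as H3K4me1 does, unlike the lists of the other degrees.

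**Figure D4:**
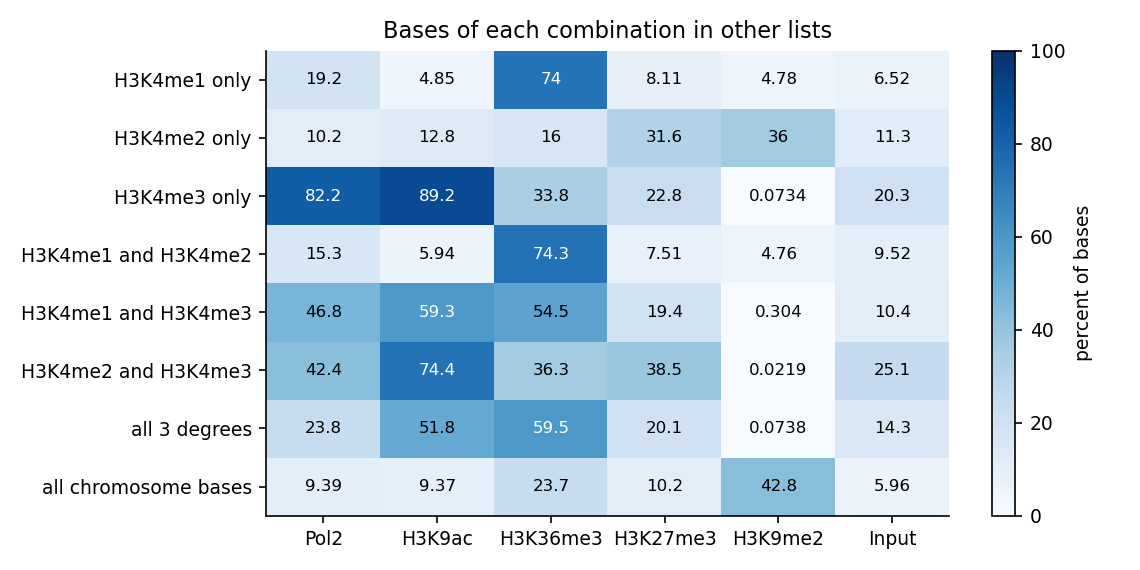
Percent of the bases of each combination of degrees (rows) that lie in peaks of 5 other targets and the Input (columns), with all chromosome bases in the last row; darker cells are higher. H3K4me3 alone is highest for Pol2 (82.2%) and H3K9ac (89.2%), H3K4me1 with or without H3K4me2 for H3K36me3 (74.3% and 74.0%), and H3K4me2 alone is the combination most covered by H3K9me2 (36.05%, against 42.8% of all bases).

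The exclusive bases were further apart than the whole lists. H3K4me3 alone lay in Pol2 over 82.2% and in H3K9ac over 89.2% of its bases. H3K4me1 alone lay in Pol2 over 19.2% and in H3K9ac over 4.85%, and in H3K36me3 over 74.0%. H3K4me2 alone did not lie between them, with Pol2 over 10.2% and H3K36me3 over 16.0%, whereas H3K36me3 covered 33.8% of H3K4me3 alone. H3K4me2 alone lay in H3K9me2 over 36.05% and in H3K27me3 over 31.6%, against 42.8% and 10.2% of the chromosomes. On H3K4me2 with H3K4me3, H3K27me3 covered 38.5% and H3K9ac 74.4%. The Input covered 6.52% of H3K4me1 alone, 11.3% of H3K4me2 alone and 20.3% of H3K4me3 alone, against 5.96% of the chromosomes.

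Ranked by the ratio to the chromosome share, the leading partners of H3K4me1 were H3K36me3 (3.04), H3K27ac (2.21) and Pol2 (1.97). For H3K4me2 they were H3K56ac (6.89), H4K20ac (6.47) and H3K36ac (6.14), and for H3K4me3 H4K20ac (14.5), H3K56ac (14.5) and H3K79ac (12.8). The lowest partners of all 3 degrees were H3K56me1, H3K56me2 and H3K9me2. H3K9me2 had a ratio of 0.0960 with H3K4me1, 0.228 with H3K4me2 and 0.00115 with H3K4me3. The chromosome share is a mean over gene-rich ends and repeat-rich centres. Pol2 lay on H3K4me1 over 20.4%, against 27.7% of all bases, in the outer 10% of the chromosomes and over 16.3%, against 4.82%, in the rest, so that its direction turned between the zones. In the outer 10%, H3K27me3 lay on H3K4me3 over 24.7%, against 21.9% of all bases there, and in the rest over 36.5%, against 7.34%. H3K9ac lay on H3K4me1 over 13.9%, against 27.4%, in the outer zones and over 9.64%, against 4.85%, in the rest.

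Along the chromosomes all degrees were densest at the ends. In the outer 10% at each end and in the rest, H3K4me1 covered 28.4% and 6.39% of the bases (log2 ratio 2.15), H3K4me2 23.5% and 7.48% (1.65), and H3K4me3 12.7% and 3.02% (2.07). Among the 27 targets these ratios ranked 3, 15 and 4. On single chromosomes the ratio ran from 0.34 to 3.11 for H3K4me1, from 0.30 to 2.16 for H3K4me2 and from 0.41 to 2.99 for H3K4me3, and all 3 were lowest on chromosome 2, which also had the highest coverage by each degree. H3K4me2 had the lowest ratio of the 3 degrees on every chromosome.

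The lower ratio of H3K4me2 went with the bases that it holds alone. H3K4me2 alone covered between 1.97% and 2.72% in each of 20 equal divisions of the chromosomes. H3K4me1 covered between 2.03% and 36.1% in these divisions and H3K4me3 between 0.942% and 16.6%. With H3K4me2 peaks of a q-value under 0.05 only, the log2 ratio of H3K4me2 was 1.97, beside 2.15 for H3K4me1 and 2.07 for H3K4me3 under the same limit. In windows of 1 Mb (796, which share the chromosome ends and centres), coverage by the degrees ranked alike, with Spearman's rho of 0.95 for H3K4me1 with H3K4me2, 0.88 for H3K4me1 with H3K4me3 and 0.95 for H3K4me2 with H3K4me3.

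**Figure D5:**
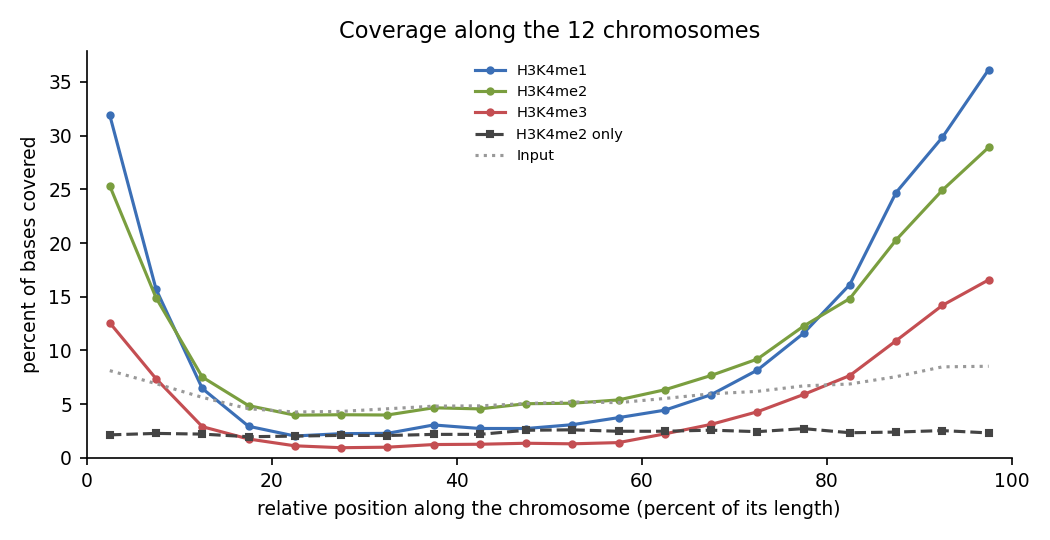
Percent of bases covered by each degree, by H3K4me2 alone and by the Input in 20 equal divisions of the relative length of the chromosomes, all 12 together. The degrees rise towards both ends, H3K4me1 up to 36.1%, whereas H3K4me2 alone stays between 1.97% and 2.72%.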

How the data were processed

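According to the study's methods and processing notes, the authors trimmed the 75 bp single-end reads of libraries made from 10 ng of DNA with Trimmomatic 0.38, aligned them to version 1 of the M82 genome with Bowtie2 2.3.5, dropped duplicates and alignments of mapping quality under 30 (SAMtools 1.9), and ran MACS2 2.2.7.1 at a p-value of 0.05 with an extension of 150 bp. The deposited unit is a fold enrichment per peak (a ratio of pileup to local background), with the −log10 of its p-value and q-value. The methods name 2 biological replicates and the labels 1 library per target. The sources used here do not give whether lists pool replicates, nor the control of each. Depth is unknown apart from the solved background.

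Here peaks were read as intervals with Python 3.11.15, numpy 2.4.6, pandas 2.3.3 and scipy 1.17.1, and figures drawn with matplotlib 3.10.9. Chromosome length was the largest peak end in any of the 28 lists (802 Mb in all). Overlap meant 1 bp, flanks were 2 kb and terminal zones the outer 10% at each end. Overlaps, gaps and domains were tested on simulated data. Regions named were, per list, the highest and the longest peak and the highest with no other degree within 10 kb, and the run of 3 degrees with the highest product of folds. Partners named were the 3 highest and 3 lowest per list, Pol2, H3K9ac, H3K36me3, H3K27me3, H3K9me2 and Input. The lists and settings were chosen with earlier results of these data known, and polarized domains and their neighbours were defined after the overlaps were seen. Alternatives were a q-value or fold limit, removal of peaks touching the Input, joining over 300 bp, equal bases, zones apart and other flanks, zones and overlaps. Peaks outside the 12 chromosomes entered no comparison.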

Additional observations from a re-analysis of the deposited data

Results flagged for a closer look

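Peaks outside the 12 chromosomes entered no comparison, and on these sequences the H3K4me2 list covered more than the Input list. H3K4me2 peaks covered 57.4% of the chloroplast sequence, against 36.01% for the Input. They covered 35.1% of the mitochondrial sequence, against 32.3%, and 1.38% of the unplaced sequence, against 1.04%. H3K4me3 covered 33.3% of the chloroplast and 15.5% of the mitochondrial sequence, below the Input in both, and H3K4me1 had no peak there. Organelle DNA carries no histones. The H3K4me2 list is broad and the others are narrow, so coverage cannot be told apart from peak format.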

How the results depend on the processing

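No paired analysis was possible because each target has 1 library and the results come from no test. Of 117 recomputed values, 32 moved by less than the Wilson interval (shares of peaks or domains) or 1 SD over the chromosomes (other values), and 85 moved by more. Only the log2 ratios could change sign, and none did. With q-values under 0.05 only, H3K4me3 bases lay in H3K4me2 over 76.9% and in H3K4me1 over 29.3%, 81.1% of the H3K4me3 peaks touched H3K4me2, and 61.0% of the domains of 3 degrees were polarized. With folds above 1.5 these were 81.9% in H3K4me2, 89.1% touching and 57.1% polarized. Without peaks touching the Input the ratio of the H3K4me1 to the H3K4me3 median width was 1.12, H3K4me3 lay in H3K4me2 over 36.1% and in H3K4me1 over 12.6%, 33.9% touched H3K4me2, 30.9% of domains were polarized, and the log2 terminal over central ratio of H3K4me2 was 1.06. With peaks joined, the width ratio was 2.21, 31.6% of the H3K4me3 bases lay in H3K4me1, 92.8% of the peaks touched H3K4me2 and 55.3% of domains were polarized. With equal bases, the values were 61.5% in H3K4me2, 7.23% in H3K4me1 and 91.6% polarized. In terminal zones they were 80.2%, 32.9% and 60.9%, with 91.0% of the peaks touching H3K4me2, and in the central zone 86.1%, 27.8% and 50.3%, with 92.5% touching. At an overlap of 50% of the peak 86.7% touched H3K4me2. By peak midpoints the log2 ratio of H3K4me2 was 1.11. The terminal ratios of H3K4me1 and H3K4me3 stayed within 1 SD under all alternatives run. The ratio of the H3K4me2 to the H3K4me3 median width was 0.906 as deposited and 1.77 with q-values under 0.05. It was 1.39 with folds above 1.5 or without peaks touching the Input, so that their order turned. With q-values under 0.05 and without peaks touching the Input, the H3K4me2 median was also above that of H3K4me1. The cause of these shifts was not tested, and leaving out peaks that touched the Input also changed the widths of the lists. The unknown depth limits comparison of lists.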
